A study of Saccharomyces cerevisiae with 2 samples.

Results

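The genes for synthesis of ergosterol, fatty acids, phospholipids and sphingolipids were followed in swr1Δ budding yeast through their gene compaction scores. They were selected by name, with earlier results of these data known. Gene names made of ERG and digits gave 19 genes, and 22 of 24 further enzyme names were found, which made 41 of the 4738 scored genes. The names ELO2 and ELO3 do not occur in the name column, where these fatty acid elongase genes stand as FEN1 and SUR4, and ERG29 is listed by its systematic identifier only. These 3 genes are described beside the 41 and enter the counts only where this is said.

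Micro-C maps chromosome folding at the scale of nucleosomes, by ligating the ends that micrococcal nuclease leaves in crosslinked chromatin and sequencing the joined pairs. The swr1Δ strain, in the W303 background and grown to mid-log phase in YPD, lacks the catalytic subunit of SWR-C, which deposits the histone variant H2A.Z. The labels name 2 replicates of this strain, and the deposited distance counts hold 7314801 and 8804603 read pairs, of which 5.11% and 3.37% lay more than 500 bp apart. Each gene carries a single deposited score for the strain, so no score has a replicate error, no test between groups could be made, and the read pairs behind a gene are not known. Neither the formula nor the log base is given in the sources used here, and the direction of the scale, whether compact genes score high or low, is not given either. Wild-type scores were not used here, so the values describe swr1Δ and not a change caused by the deletion. SWR1 itself, the deleted gene, is listed at -2.13, with 24 genes lower. A low score is therefore listed even for a gene deleted in this strain, and whether low scores go with few read pairs was not tested.

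Ergosterol, the sterol of fungal membranes, is built from acetyl-CoA through mevalonate, farnesyl diphosphate, squalene and lanosterol. Fatty acids are made by a carboxylase and a large synthase, and are then elongated and desaturated. Phospholipids and sphingolipids draw on these acyl chains. Sterol genes are activated by the zinc cluster factors Upc2 and Ecm22, and many phospholipid genes by Ino2 and Ino4, which Opi1 holds back when inositol is plentiful. INO1 is a well-known example of a gene whose place at the nuclear periphery and memory of recent activity involve H2A.Z.

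The 41 genes sat near the center of the genome and spread less widely than all genes. Their median score was -0.0885, beside -0.0394 for all 4738 genes. Their quartiles were -0.291 and 0.104, beside -0.342 and 0.248. Of the 41 genes, 23 scored below 0 (56.1%, beside 53.8% of all genes), and 22 scored below the median of their length class (53.7%, beside 49.9%). The lowest 10% of the genome, at or below -0.729, held 1 of them (2.44%, beside 10% of all genes), and the highest 10%, at or above 0.546, held 0 of them (beside 10%). Against genes of at least 1000 bp alone, the lowest 10% held 3 of 33 lipid genes (9.09%), so the low count there depends on whether short genes are included. FAS1 lay in the highest 10% of its own length class, with 93.9% of that class lower. The middle 50% of the genome held 26 of the genes, the range below the lower quartile 8 (19.5%, beside 25%) and that above the upper quartile 7 (17.1%, beside 25%). The SD over genes was 0.311, beside 0.555 for all genes. These SDs are spreads between genes and not experimental errors, and the difference between them was not tested.

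**Figure D1:**
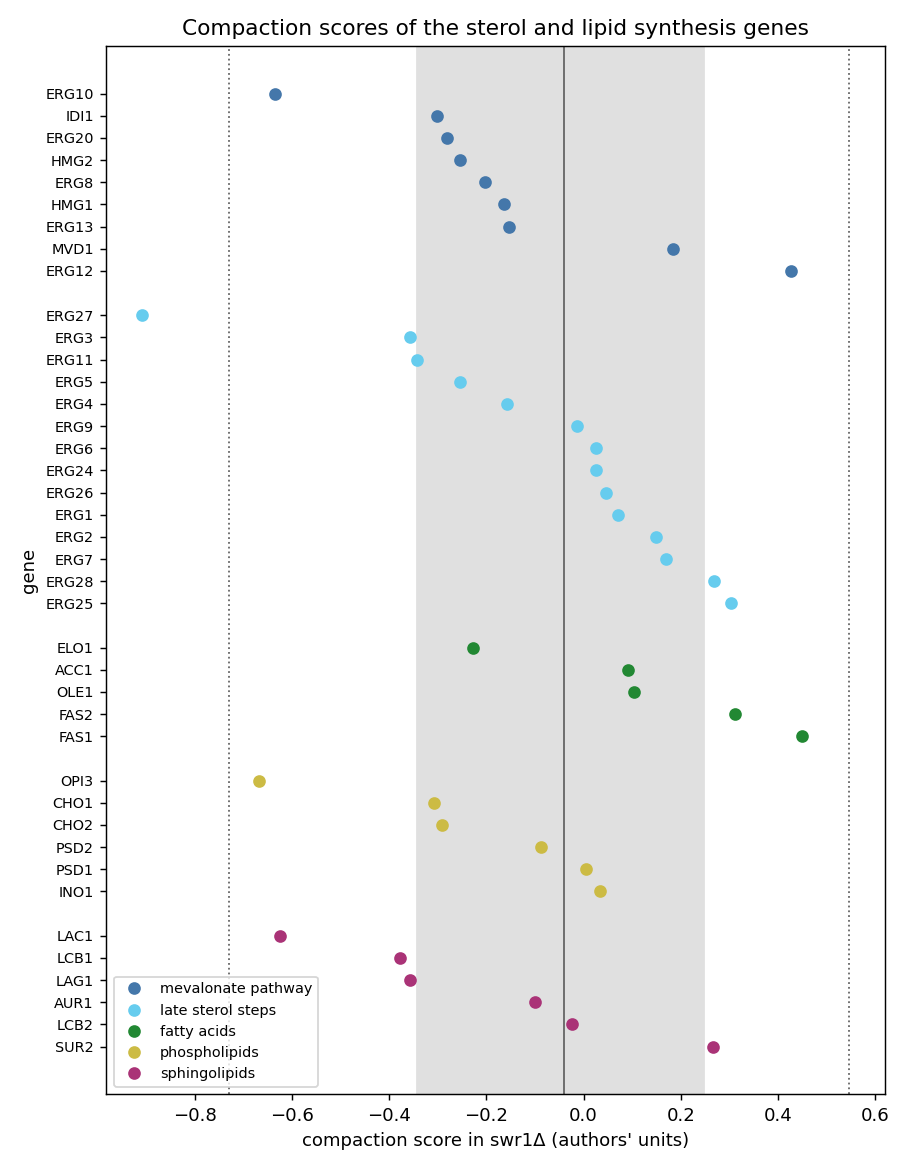
Compaction score in swr1Δ (x axis, authors' units) of 40 of the 41 sterol and lipid synthesis genes (y axis), 1 point a gene, grouped and colored by pathway step; the gray band spans the quartiles of all 4738 genes (-0.342 to 0.248), the solid line is their median and the dotted lines bound the lowest and highest 10% (-0.729 and 0.546). Of the 40 points, that of ERG27 lies beyond a dotted line, and 7 of 9 mevalonate pathway genes lie left of the median.

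Gene length bears on such a comparison, because scores of short genes spread more in the whole file. Among genes from 1000 bp to under 2000 bp the SD was 0.301 for 25 lipid genes and 0.475 for 1967 genes in all. Among those of at least 2000 bp it was 0.271 for 8 lipid genes and 0.386 for 1168 genes in all. For genes under 1000 bp the SDs were 0.378 (8 genes) and 0.703 (1450 genes). The lipid genes were therefore the less variable set in each length range. Across the 41 genes, score and length, from 447 bp for ERG28 to 6702 bp for ACC1, had a Spearman's rho of 0.0975 and a Pearson's r of 0.272. The corresponding values over 4585 genes were 0.0831 and 0.0943. Genes share the same libraries and are not independent replicates.

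The mevalonate pathway, which turns acetyl-CoA into farnesyl diphosphate, had a median of -0.203 over 9 genes. Of these, 7 were below 0 (77.8%, beside 53.8% of all genes). ERG10, encoding acetoacetyl-CoA thiolase for the first step, had the lowest score of the pathway at -0.636 and the third lowest of the 41, with 598 genes of the genome lower. ERG13, HMG-CoA synthase, followed in the pathway at -0.154. The reductases of the rate-limiting step scored -0.164 (HMG1) and -0.254 (HMG2). Of the kinases, ERG12 (mevalonate kinase) had the highest score of the pathway at 0.427, whereas ERG8 (phosphomevalonate kinase) had -0.203. MVD1, the decarboxylase, scored 0.185. The last enzymes lay lower, with -0.302 for IDI1, the isopentenyl diphosphate isomerase, and -0.282 for ERG20, the farnesyl diphosphate synthase. Consecutive enzymes thus lay on both sides of the genome median.

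The steps from farnesyl diphosphate to ergosterol covered 14 genes with a median of 0.0261, and 6 were below 0 (42.9%, beside 53.8% of all genes). The early enzymes were close to 0: squalene synthase ERG9 scored -0.013, squalene epoxidase ERG1 0.0705 and lanosterol synthase ERG7 0.17. ERG11, the lanosterol demethylase that azole drugs inhibit, had -0.342, and ERG24, the C-14 reductase that acts after it, had 0.0261. The C-4 demethylation complex held both ends of the late steps. Its oxidase ERG25 scored 0.302, its dehydrogenase ERG26 0.0458 and its scaffold ERG28 0.269, but its 3-keto reductase ERG27 scored -0.909, the lowest of the 41 genes. ERG29, which acts with this complex and is listed without a gene name, scored -0.0827. The remaining enzymes were ERG6 (sterol methyltransferase) at 0.0261, ERG2 (isomerase) at 0.149, ERG3 (C-5 desaturase) at -0.357, ERG5 (C-22 desaturase) at -0.255 and ERG4 (the final reductase) at -0.157. The desaturases and the final reductase were thus all below the genome median.

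The fatty acid genes were the step with the highest median, 0.104 over 5 genes, and 1 was below 0 (20%, beside 53.8% of all genes). FAS1 and FAS2, which encode the beta and alpha subunits of fatty acid synthase, scored 0.45 and 0.311, the former being the highest of the 41 genes. ACC1, the acetyl-CoA carboxylase that supplies the synthase, scored 0.091 and the desaturase OLE1 scored 0.104. HFA1, encoding the mitochondrial carboxylase related to ACC1 and chosen here after its value was seen, scored 0.129. The elongases were lower: ELO1 had -0.228, ELO2 -0.707 and ELO3 -0.823, the last with 380 genes of the genome lower. With ELO2 and ELO3 the fatty acid median was 0.091 over 7 genes, of which 3 elongases lay below the genome median and the other genes above it.

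Phospholipid synthesis had a median of -0.0885 over 7 genes. INO1, which makes inositol phosphate for phosphatidylinositol, scored 0.0332. It had 2718 genes of the genome below it (57.4%), so its score in swr1Δ was near the middle of the range. With no wild-type score used, a role of H2A.Z at INO1 was not tested. In the route to phosphatidylcholine, CHO1 (phosphatidylserine synthase) scored -0.307, the decarboxylases PSD1 and PSD2 0.0051 and -0.0885, and the methyltransferases CHO2 and OPI3 -0.291 and -0.668. OPI3, the enzyme that completes phosphatidylcholine, had the second lowest score of the 41 genes, with 546 genes of the genome lower. It is 621 bp long, and 30.6% of genes in its length class scored lower, against 11.5% of all genes.

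Sphingolipid synthesis had the lowest median of the 5 steps, -0.228 over 6 genes. Of these, 5 were below 0 (83.3%, beside 53.8% of all genes) and 4 were below the genome median. The subunits of serine palmitoyltransferase, the entry enzyme, scored -0.378 (LCB1) and -0.0245 (LCB2). The ceramide synthase genes scored -0.626 (LAC1) and -0.356 (LAG1). The hydroxylase SUR2 alone scored above 0, at 0.266, and AUR1, the inositol phosphorylceramide synthase that aureobasidin A inhibits, scored -0.101. The medians of all 23 sterol genes and of the 18 genes for other lipids were -0.154 and -0.0565, and the range of each set covered the median of the other.

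Genes for the same reaction, a shared enzyme or consecutive methylation steps were compared in 6 pairs. HMG1 and HMG2 differed by 0.0893, PSD1 and PSD2 by 0.0936, FAS1 and FAS2 by 0.138, LAC1 and LAG1 by 0.269, LCB1 and LCB2 by 0.353, and CHO2 and OPI3 by 0.377. The median absolute difference was 0.204 over these pairs and 0.308 over all 820 pairs of the 41 genes. The elongases ELO1, ELO2 and ELO3, at -0.228, -0.707 and -0.823, were planned for this comparison but are not among the 6 pairs. The lower median therefore holds only for the pairs taken. The 6 pairs among ERG25, ERG26, ERG27 and ERG28, added later, had a larger median of 0.606 and reached 1.21, and with them the median over 12 pairs was 0.263. These differences have no error, since each score is a single value. HMG1 (chromosome XIII, 115734 to 118898) and HMG2 (chromosome XII, 1032627 to 1035764; R64 coordinates) lie in related regions, in which FPR3 or FPR4, encoding nuclear proline isomerases, is next to the reductase gene and RPL6A or RPL6B, encoding a ribosomal protein, comes next. The gene on the other side encodes a zinc cluster factor, WAR1 or LEU3. Along chromosome XIII the scores of WAR1, HMG1, FPR3 and RPL6A were 0.0018, -0.164, 0.339 and -0.323. The scores of LEU3, HMG2, FPR4 and RPL6B on chromosome XII were -0.0804, -0.254, 0.466 and -0.828. The order of the 4 scores was the same in both regions, from the ribosomal protein gene as the lowest to the isomerase gene as the highest. These regions were chosen after their values were seen.

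**Figure D2:**
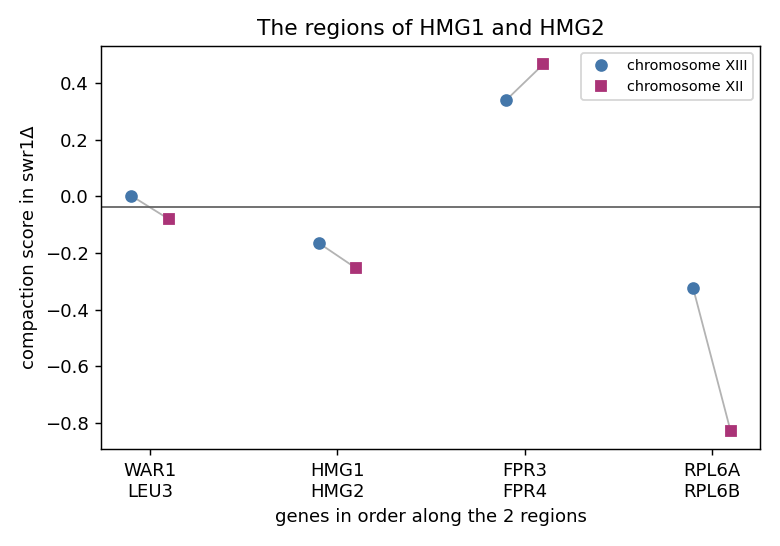
Compaction score in swr1Δ (y axis, authors' units) of 4 neighboring genes (x axis, in their order along chromosome XIII, which is reversed on chromosome XII) in the region of HMG1 on chromosome XIII (circles) and in that of HMG2 on chromosome XII (squares); gray lines join the genes compared and the horizontal line is the median of all 4738 genes. The isomerase genes FPR3 and FPR4 are highest (0.339 and 0.466) and the ribosomal protein genes RPL6A and RPL6B lowest (-0.323 and -0.828).

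The scores of the lipid genes were next set against those of the 2 nearest scored genes on each side along each chromosome (R64 assembly). The 41 genes lie on 10 chromosomes, with 8 on XIII and 7 on VII, and 0 of them were among the 5 scored genes nearest a chromosome end. A lipid gene was below all 4 neighbors in 5 of 41 cases (12.2%, beside 20% of 4521 genes) and above all 4 in 6 of 41 (14.6%, beside 19.8%). It was below the mean of the 4 in 19 cases (46.3%, beside 48.4%). The median of own score minus neighbor mean was 0.0385 for the lipid genes and 0.0192 for all genes. Across the 41 genes, own score and neighbor mean had a Spearman's rho of -0.12 (Pearson's r -0.156). Over 4521 genes rho was 0.0909.

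The genes with extreme scores stood apart from the genes around them to different degrees. ERG27 (YLR100W, chromosome XII, 341810 to 342853) scored -0.909, while ICT1 and CHA4 before it had -0.0025 and 0.197 and APC9 and CDC45 after it had 0.162 and 0.152. OPI3 (YJR073C, chromosome X, 572315 to 572935) scored -0.668 between NPA3 at 0.0043 and MOG1 at 0.708, with LIA1 at 0.572 and HOC1 at -0.311 beyond them. Both were below all 4 neighbors, as were ERG3, ERG20 and ERG5. ERG10 (YPL028W, chromosome XVI, 498096 to 499292) was different, because the adjacent SMA1 was lower still at -1.01, while SUV3 had 0.402, TRM44 -0.209 and SKS1 -0.101.

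At the other end, FAS1 (YKL182W, chromosome XI, 100671 to 106826) scored 0.45 among low neighbors, with LOT5 at -0.75, PRS1 at -0.727, RPL17A at -0.679 and SPE1 at -0.0139. ERG12 (YMR208W, chromosome XIII, 684467 to 685798) scored 0.427 beside HFA1 at 0.129 and YMR209C at 0.314, with PFK2 at -0.173 and MGL2 at 0.0135 beyond them. Above all 4 neighbors were FAS1, ERG12, ERG25, SUR2, ACC1 and ERG1. ERG1 and ERG6 were near 0 in the lowest surroundings, with neighbor means of -0.719 and -0.688, the latter set by MRPL39 at -3.01.

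**Figure D3:**
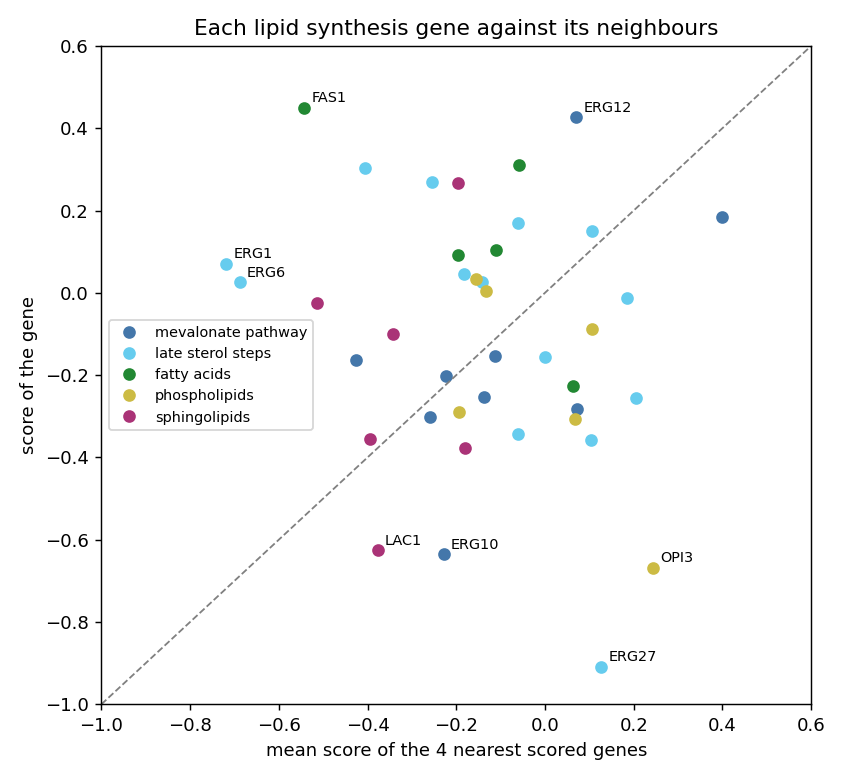
Score of 40 of the 41 lipid synthesis genes in swr1Δ (y axis, authors' units) against the mean score of the 2 nearest scored genes on each side (x axis, same units), colored by pathway step; the dashed line marks equal values. Points lie on both sides of the line (19 of 40 below it), with ERG27 and OPI3 far below and FAS1 far above.

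Lipid genes that lie close together were compared next. The closest were PSD2 and ERG1, 6374 bp apart on chromosome VII, with -0.0885 and 0.0705, and LAC1 and AUR1, 7028 bp apart on chromosome XI, with -0.626 and -0.101. ERG2 and ERG12, 16261 bp apart on chromosome XIII, had 0.149 and 0.427, and LAG1 and ERG11, 18207 bp apart on chromosome VIII, had -0.356 and -0.342. ERG4 and ERG26, 21176 bp apart on chromosome VII, had -0.157 and 0.0458. Of these 5 closest pairs, LAG1 and ERG11 had the nearest scores. The 18 genes with a divergent gene on their 5′ side had a median of -0.129 (range -0.668 to 0.427) and the 23 with a tandem one had -0.013 (-0.909 to 0.45). These ranges overlapped over most of their length. The distance to that upstream gene ran from 159 bp (OPI3) to 1538 bp (ACC1), and it had a Spearman's rho of 0.0866 with the score across the 41 genes.

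Of 79 other lipid genes listed, 72 had a score. The 64 enzymes, transporters and accessory factors among them had a median of 0.0661 and an SD of 0.442, with 5 in the lowest 10% (7.81%) and 3 in the highest (4.69%), each beside 10% of all genes. By pathway, their medians were 0.371 for sterols (9 genes), -0.0773 for fatty acids (16), 0.11 for phospholipids (24) and 0.0142 for sphingolipids (15). The sterol group here is broader than ergosterol synthesis and holds COQ1, so these groups do not match the steps of the 41 genes. The order of these medians was not that of the 41 synthesis genes, among which fatty acids were highest and sphingolipids lowest. The 64 include further synthesis genes, such as KEI1 and MCT1, that lie in the lowest and highest 10%. The narrow spread of the 41 genes therefore describes a set chosen by name and not all lipid synthesis genes. The lowest single scores were KEI1 (-1.10), a subunit of inositol phosphorylceramide synthase, DGK1 (-0.948), the diacylglycerol kinase, and SUR1 (-0.844), which acts in mannosylation of sphingolipids. The highest single scores were COQ1 (1.07), which makes the ubiquinone side chain, ORM2 (0.713), which restrains serine palmitoyltransferase, and MCT1 (0.697), of mitochondrial fatty acid synthesis. ORM1, the copy of ORM2 and chosen after its value was seen, had -0.594, so these copies differed by 1.31.

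By their median, the 8 transcriptional regulators listed for these pathways lay high in the genome's range. This list was chosen with earlier results of these data known. All 8 had a score, their median was 0.531, and 4 of them were in the highest 10% of the genome (50%, beside 10%). UPC2 had 0.887 and its paralog ECM22 0.466. The heterodimer partners INO2 and INO4 had 0.663 and 0.597, and their repressor OPI1 had 0.615. HAP1, the heme-responsive activator of several sterol genes, had 0.367. MGA2 and SPT23, the membrane-bound activators of OLE1, were the lowest with 0.0196 and -0.163. They had 55.9% and 38.6% of the genome lower, so they did not lie high. UPC2, INO2, OPI1, INO4 and ECM22 scored above every one of the 41 synthesis genes, the highest of which was FAS1 at 0.45. A list of 32 further regulators, most of them of other pathways, was chosen after these values were seen. Its 26 scored genes had a median of 0.0231, with 2 in the highest 10% (7.69%). The list is not free of factors that also regulate lipid genes: OAF1, PIP2, PDR1 and PDR3 are in it, at -0.12, 0.0647, -0.0308 and -0.361. The contrast thus depends on which regulators were counted as those of lipid pathways. No test of the difference between lists was possible with 1 value a gene.

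**Figure D4:**
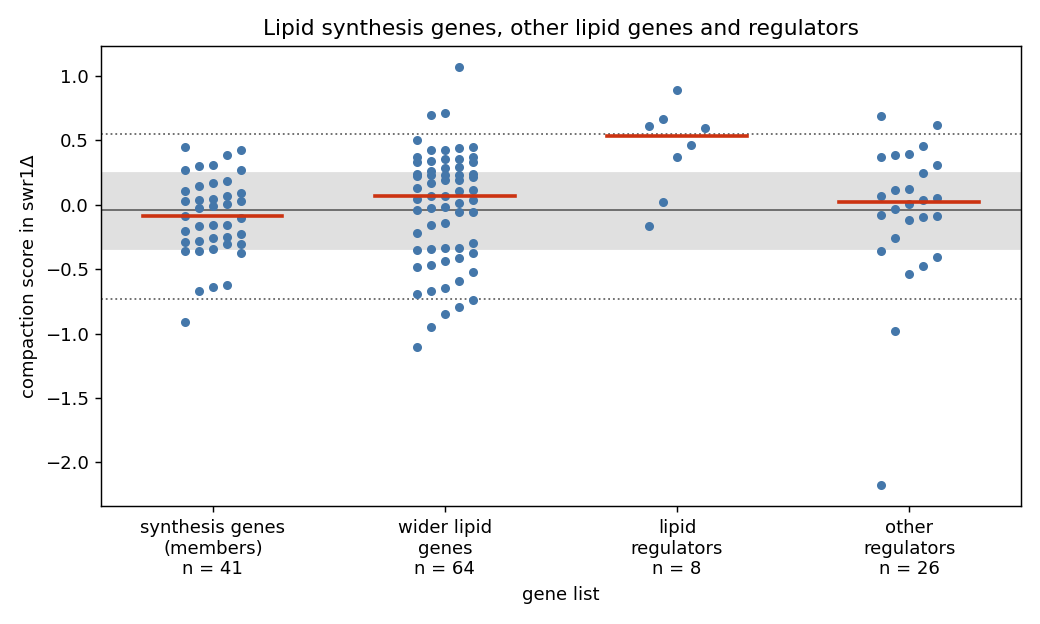
Compaction score in swr1Δ (y axis, authors' units) of 4 gene lists (x axis), 1 point a gene and a red line at each median; the gray band spans the quartiles of all 4738 genes, the solid line is their median and the dotted lines bound their lowest and highest 10%. The 8 lipid regulators have a median of 0.531, above the medians of the 41 synthesis genes (-0.0885), the 64 wider lipid genes (0.0661) and the 26 other regulators (0.0231).

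Other metabolic pathways gave a scale for these values. Amino acid synthesis (72 scored genes of 80 listed) had a median of 0.0247, an SD of 0.39, 2 genes in the lowest 10% (2.78%) and 7 in the highest 10% (9.72%). Glycolysis (18 of 21) had a median of -0.198, an SD of 0.517, and 2 (11.1%) and 3 (16.7%) genes in these ranges. The respiratory chain and TCA cycle (33 of 50) had a median of 0.0717, an SD of 0.511, and 3 (9.09%) and 4 (12.1%). The lipid genes had the smallest SD of these lists and the only count of 0 in the highest 10%, while their share in the lowest 10% was close to that of amino acid synthesis. Their median lay between that of glycolysis and those of the other lists.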

How the data were processed

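Micro-C libraries of swr1Δ yeast were made by the authors, and the submitters' processing notes name CASAVA 1.8.2, Bowtie2 and the sacCer3 build, which is the R64 assembly. The authors deposited 1 compaction score per gene, used here as given, and unnormalized counts of read pairs by distance for 2 libraries, used here only for depth. There are 2 replicates by the labels but 3 by the methods of the paper, and which libraries entered the score and how they were combined is not given in the sources used here. There were 0 per-sample columns left unused. Gene positions were taken from the R64 gene table, in which 4585 of 4738 identifiers (96.8%) and all 41 lipid genes were found. Ranks, medians, the lowest and highest 10%, 10 length classes of equal size and neighbors were computed with Python 3.11.15, numpy 2.4.6 and pandas 2.3.3, after the functions were tested on simulated data. A share of genes carries no interval, since genes are not replicates. Of the 41 lipid genes, 40 were named, since 1 is counted but not reported here by name, with the 8 regulators and the 3 lowest and 3 highest of the other lipid genes. The members and lists were chosen with earlier results of these data known. Alternatives were gene length, chromosome ends, ribosomal protein genes, neighbor number, the mean, and the genes listed under other names. Strand was read from systematic names.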

Additional observations from a re-analysis of the deposited data

How the results depend on the processing

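Of 47 alternative values, 42 were counted as unchanged and 4 counts moved by more than 1.5 times. The 42 include medians that kept their sign but changed in size. With the median of its length class taken from each score, the median of the 41 genes was -0.0425, beside 0 for all genes. As means, the 41 genes and all genes had -0.0921 and -0.0757. Some of the 42 could not change. No lipid gene was among the 5 scored genes nearest a chromosome end, so leaving those out kept the median and the count below 0. ELO2, ELO3 and ERG29 add no gene to the mevalonate, phospholipid or sphingolipid steps, so the medians of these steps were fixed in that alternative. The count of lipid genes in the lowest 10%, 1, was 3 of 33 (9.09%) among genes of at least 1000 bp, 2 against a genome without ribosomal protein genes and 2 with ELO2, ELO3 and ERG29, which was added later with the scores in view. The count of genes below every near neighbor, 5, was 12 with 1 neighbor on each side, beside 32.4% of all genes, as the smaller number of neighbors requires. The only change of sign was that of the late sterol steps, whose median of 0.0261 became a mean of -0.0696, with ERG27 at -0.909 in it. Both lay above the genome's own values, a median of -0.0394 and a mean of -0.0757. The count in the highest 10% stayed at 0 in every alternative run. Each run used 1 cutoff for genes of all the lengths it held. Ranked within their own length classes, FAS1 had 93.9% of genes lower, ERG27 7.63% and ERG10 9.61%. With ELO2, ELO3 and ERG29 the count in the highest 10% could not rise, since their scores, -0.707, -0.823 and -0.0827, lie below that range. The regulators in that range numbered 4 in all alternatives but genes of at least 1000 bp (3 of 6), and the SD of the lipid genes ranged from 0.299 to 0.332, alternatives that were added after the data were seen. Leaving out a library was not possible, because the score is 1 value for the strain. No paired analysis was possible because the score has no replicate values and only swr1Δ was used. The depth behind each score is unknown.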
